A study of Mus musculus with 21 samples.

Results

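The genes described here are 39 components of the intracellular part of insulin signalling, listed by name, out of 25239 gene rows in each deposited table. They were followed in choroid plexus, the secretory epithelium that makes cerebrospinal fluid, and in hypothalamus, the brain region that regulates feeding. Bulk messenger RNA sequencing gave 6 libraries of choroid plexus with overexpressed Ins2, an insulin gene of the mouse, and 5 of control choroid plexus. Hypothalamus gave 5 libraries of mice with Ins2 overexpressed in the choroid plexus and 5 control libraries. All animals were labelled as wild type (WT) on a C57BL/6J background, and the controls as untreated. The labels name neither the age of the mice, nor the vector or promoter that drove Ins2, nor whether each library came from a separate animal, so that the p-values reflect a spread between samples that may be technical. The authors' headers mark the hypothalamus controls with GFP, and whether those mice had received a GFP construct is unknown here.

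Insulin acts through a receptor tyrosine kinase whose substrates recruit phosphoinositide 3-kinase (PI3K). The lipid that PI3K makes brings the kinases PDK1 and AKT to the membrane, and AKT then inhibits GSK3, keeps FOXO transcription factors out of the nucleus and, through TSC and RHEB, releases the mTOR complex that drives protein synthesis. A parallel branch runs from the adaptors SHC and GRB2 through SOS, RAS and MEK to ERK. Signal passes along this chain mainly by phosphorylation, which RNA sequencing does not read, and the values below are transcript levels only. In the hypothalamus the PI3K branch is known for its part in the restraint of feeding by insulin.

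Values are reads per gene divided by the authors' size factor of the library, called scaled reads below. The libraries held 25.95 to 36.3 M reads (M, 1e+06) in choroid plexus and 27.4 to 62.1 M in hypothalamus. Fold changes are Ins2 over control on the scale of log2(scaled reads + 1), and a gene was called where limma gave a p-value, adjusted by Benjamini-Hochberg over every gene tested in the tissue, of at most 0.05. Genes with a mean of at least 10 scaled reads were tested. This left 38 of the 39 in choroid plexus, where Foxo6 fell below the limit, all 39 in hypothalamus, and 38 for the difference between the tissues.

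The labels were checked first. In choroid plexus Ins2 had a lowest, median and highest value of 598, 865 and 1041 scaled reads in the Ins2 libraries, against 387, 394, 466, 401 and 501 scaled reads in the controls. Every Ins2 library lay above every control, with a fold of 1.90 (95% interval 1.59 to 2.27) and an adjusted p of 0.00594 by limma. In hypothalamus 4 of the 5 Ins2 libraries and all 5 controls held 0 reads of Ins2, which allows up to 3 reads per library, and Ins2 replicate 4 held 5.75 scaled reads. The 8 markers of choroid plexus epithelium summed to 3.41 to 4.14 M scaled reads in Ins2 choroid plexus and 3.56 to 3.96 M in control choroid plexus, and the 8 markers of hypothalamic neurons to 37163 to 44216 in Ins2 hypothalamus and 35408 to 45899.5 in control hypothalamus. One library stood apart: control replicate 2 of choroid plexus held 49586 scaled reads of the 5 oligodendrocyte markers, against 1733 to 4991 in every other choroid plexus library. It also held 9679 scaled reads of the 5 astrocyte markers, against 2888 to 4944 in the others, and 676 of the hypothalamic neuron markers, against 25.7 to 85.6. All 5 astrocyte markers were below 0 in choroid plexus, with a median log2 fold change of -0.45, and the part of these cells in the results was not tested. Without that library none of the 38 genes was called in choroid plexus either, and 5 of 38 had an unadjusted p under 0.05, 4 of them lower in Ins2.

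Promoters from RefSeq (GRCm38.p6) are shown for 4 genes on which the comparisons turn. Pik3r1 had the smallest p-value in choroid plexus, Gsk3a in hypothalamus and Foxo3 in the difference between the tissues, and Ptpn11 has the single cyclic AMP response element found in these genes. Each run is the 250 bases before the start annotated in RefSeq, 5′ to 3′, and for Pik3r1 before the farther upstream of its starts. In GENCODE M21, the annotation used for exon lengths, Foxo3 starts at 42276755, so the end of its run lies inside that gene model. Capitals mark the SP1 box GGGCGG, read on either strand, and, in Ptpn11, the response element TGACGTCA.
Foxo3, chr10:42276696-42276945, minus strand: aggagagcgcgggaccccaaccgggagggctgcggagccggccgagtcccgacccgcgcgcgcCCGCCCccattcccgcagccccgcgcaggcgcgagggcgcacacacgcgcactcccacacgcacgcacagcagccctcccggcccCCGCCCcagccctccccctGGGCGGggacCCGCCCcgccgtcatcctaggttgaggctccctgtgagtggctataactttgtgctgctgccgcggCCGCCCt
Gsk3a, chr7:25237852-25238101, minus strand: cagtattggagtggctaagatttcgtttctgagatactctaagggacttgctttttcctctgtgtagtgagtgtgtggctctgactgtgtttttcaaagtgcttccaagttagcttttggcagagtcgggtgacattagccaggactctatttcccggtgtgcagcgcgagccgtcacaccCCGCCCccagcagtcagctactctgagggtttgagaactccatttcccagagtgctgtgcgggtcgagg
Pik3r1, chr13:101768218-101768467, minus strand: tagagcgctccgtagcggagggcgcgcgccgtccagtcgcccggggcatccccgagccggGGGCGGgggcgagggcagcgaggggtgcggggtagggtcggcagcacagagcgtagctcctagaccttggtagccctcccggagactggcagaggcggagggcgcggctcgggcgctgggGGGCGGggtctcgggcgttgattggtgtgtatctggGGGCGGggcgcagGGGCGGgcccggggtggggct
Ptpn11, chr5:121191398-121191647, minus strand: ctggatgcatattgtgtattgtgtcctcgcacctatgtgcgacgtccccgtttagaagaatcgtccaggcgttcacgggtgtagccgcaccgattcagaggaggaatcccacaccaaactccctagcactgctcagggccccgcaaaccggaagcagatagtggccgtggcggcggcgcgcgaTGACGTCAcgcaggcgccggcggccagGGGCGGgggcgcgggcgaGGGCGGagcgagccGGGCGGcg
The table held 48 promoters for 34 of the 39 genes and none for Foxo4, Foxo6, Rps6kb2, Eif4ebp1 and Mapk3. The SP1 box occurred on either strand in 31 of the 48, against 32.7% of all 32851 promoters of the same length, and the median GC content was 60.0% in these 48 promoters and 52.4% in all. The FOXO core GTAAACA was found only in Akt1 among these genes (3.17% of all promoters), the response element TGACGTCA only in Ptpn11 (1.55%), and the E-box CACGTG only in Rheb (6.02%). The ETS core CCGGAAGT was found in Mtor, Pik3ca and Tsc2 (2.88%). A match is a description of the letters and not a site of binding.

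**Figure D1:**
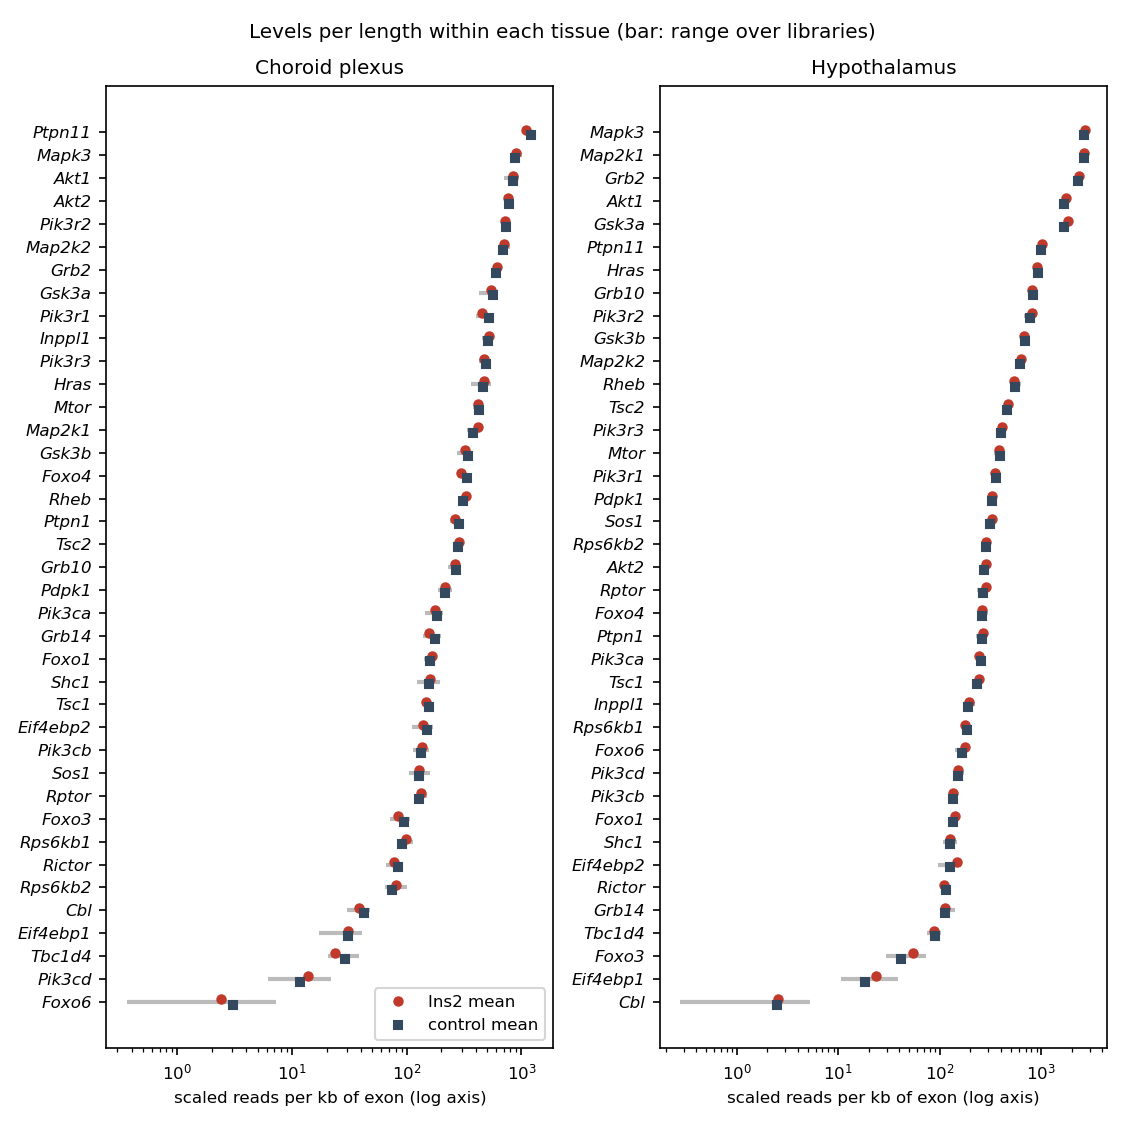
Mean scaled reads per kilobase of exon (log axis) of each gene in Ins2 (circles) and control (squares) libraries, with grey bars for the range over all libraries of the tissue. The circle and square of a gene nearly coincide, while the genes span from Foxo6 (2.38 in Ins2, 3.02 in control) to Ptpn11 (1094 in Ins2, 1205 in control) in choroid plexus.

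Per length, the chain was present almost whole in both tissues, and its members differed far more from each other than the groups did. In choroid plexus the highest level was that of Ptpn11, which encodes the phosphatase SHP2 that couples receptors to RAS, at 1094 ± 58.4 scaled reads per kilobase in Ins2 and 1205 ± 41.6 in control libraries (SD, n = 6 and 5). In hypothalamus it was that of Mapk3, which encodes ERK1, at 2693 ± 63.5 per kilobase in Ins2 and 2658 ± 37.8 in control libraries (SD, n = 5 each). The lowest were Foxo6 in choroid plexus (2.38 ± 2.49 in Ins2, 3.02 ± 1.02 in control) and Cbl, a ubiquitin ligase for activated receptors, in hypothalamus (2.52 ± 0.995 in Ins2, 2.49 ± 1.97 in control). The tables were scaled separately, so these levels were compared within a tissue only. In bulk tissue a lower level can mean fewer cells of a type or less RNA per cell, and these cannot be told apart.

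**Figure D2:**
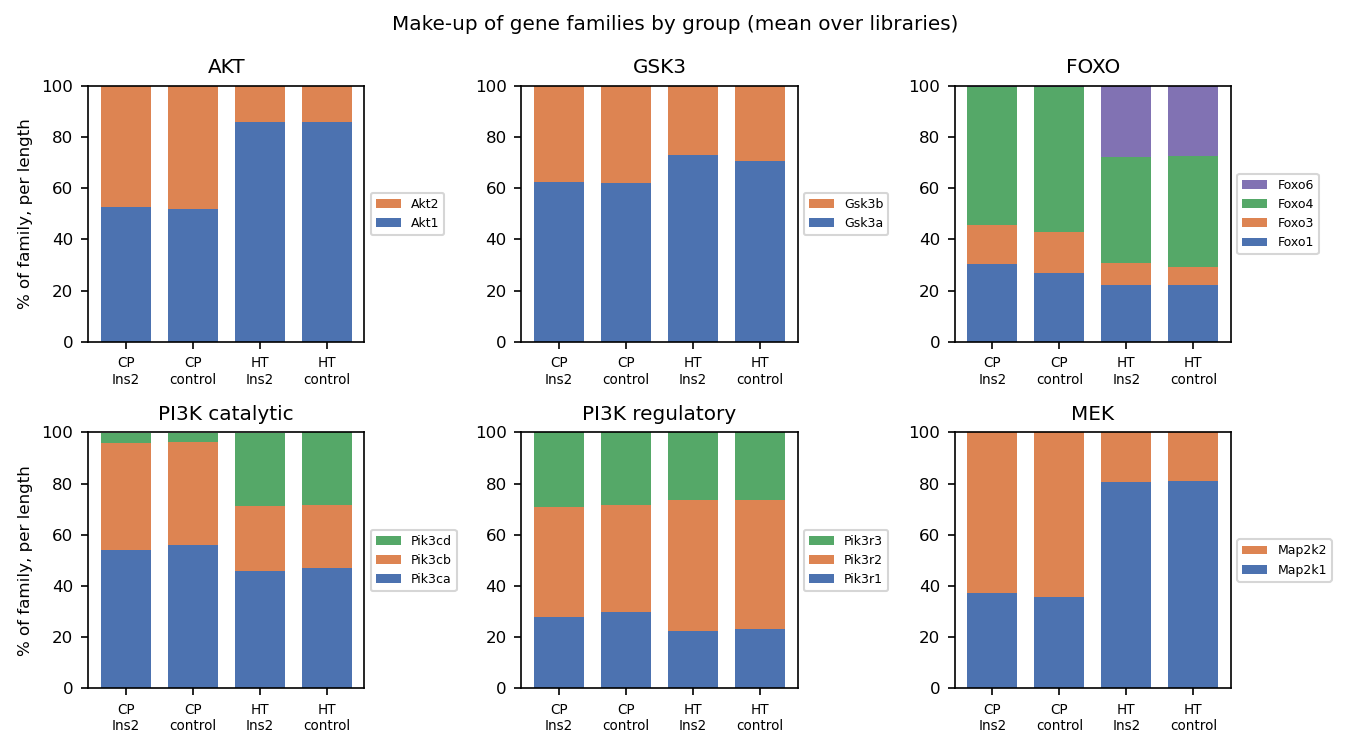
Share (%) of each member in the summed level per length of its gene family, as the mean over libraries, for choroid plexus (CP) and hypothalamus (HT), Ins2 left of control. The make-up differs between the tissues, as in AKT (Akt1 52.5% in CP Ins2 and 52.1% in CP control, 86.1% in HT Ins2 and 86.0% in HT control), and hardly between the groups within a tissue.

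The make-up of the gene families, taken within each library as a share per length, does not depend on the scaling between tables. Akt1, the main AKT kinase of growth control, made up 52.5% ± 2.39 of Akt1 plus Akt2 in Ins2 and 52.1% ± 1.47 in control choroid plexus (SD, n = 6 and 5), and 86.1% ± 0.446 in Ins2 and 86.0% ± 0.703 in control hypothalamus (SD, n = 5 each). Akt2, the form best known for glucose uptake, thus held nearly as large a share as Akt1 in choroid plexus. Of the MEK kinases, Map2k1 was the lesser in choroid plexus, at 37.2% ± 1.74 in Ins2 and 35.6% ± 3.26 in control, and the greater in hypothalamus, at 80.6% ± 0.225 in Ins2 and 81.0% ± 0.711 in control. In neither family did the shares of the choroid plexus and hypothalamus libraries overlap.

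Among the FOXO factors, Foxo4 led in both tissues, with 54.0% ± 2.47 in Ins2 and 56.7% ± 1.52 in control choroid plexus and 41.2% ± 3.45 in Ins2 and 43.4% ± 2.81 in control hypothalamus. Foxo6, a brain-enriched FOXO gene, made up 0.435% ± 0.448 in Ins2 and 0.506% ± 0.169 in control choroid plexus, against 27.9% ± 1.93 in Ins2 and 27.3% ± 1.26 in control hypothalamus. Pik3cd, the catalytic PI3K subunit typical of leukocytes, made up 4.18% ± 1.04 of the 3 catalytic subunits in Ins2 and 3.60% ± 1.12 in control choroid plexus, and 28.6% ± 1.21 in Ins2 and 28.2% ± 1.88 in control hypothalamus. Grb14, an adaptor that blocks the insulin receptor's kinase, made up 15.3% ± 1.25 of Grb2, Grb10 and Grb14 in Ins2 and 17.0% ± 1.497 in control choroid plexus, and 3.39% ± 0.270 in Ins2 and 3.49% ± 0.417 in control hypothalamus. These tissue shares are descriptions and were not tested.

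The first comparison asked whether choroid plexus that carried extra Ins2 changed its own signalling transcripts. None of the 38 genes tested was called, the smallest adjusted p being 0.557 by limma, against 2 of all 14533 genes (0.0138%). Both edgeR and DESeq2 on the recovered reads also called 0 of the 38. DESeq2 gave no adjusted p for at least Foxo3, so it could not have called all 38. At an unadjusted p under 0.05 there were 4 of the 38, or 10.5%, all with lower values in Ins2 (Pik3r1, Foxo4, Ptpn11 and Grb14), against 3.67% of all genes lower and 6.21% in either direction. The 38 genes ran from a log2 fold change of -0.24 for Tbc1d4, a RAB regulator that AKT phosphorylates, to 0.22 for Pik3cd, with a median of -0.03. Of these, 22 of 38 (57.9%) were below 0, beside 51.6% of all genes. With equal totals per library 19 of 38 were below 0 and 19 above, where 56.0% of all genes lay above 0. With a trend on exon length removed within each library, 20 of 38 were below 0 and 18 above, with a median of -0.01. There 49.3% of all genes with a length lay above 0. The ranges of the groups overlapped for all 38, where 0.626% of all genes had ranges that did not. The 95% interval of the fold lay within 1.5-fold in either direction for 37 of the 38 genes, the exception being Pik3cd, and within 2-fold for all 38.

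**Figure D3:**
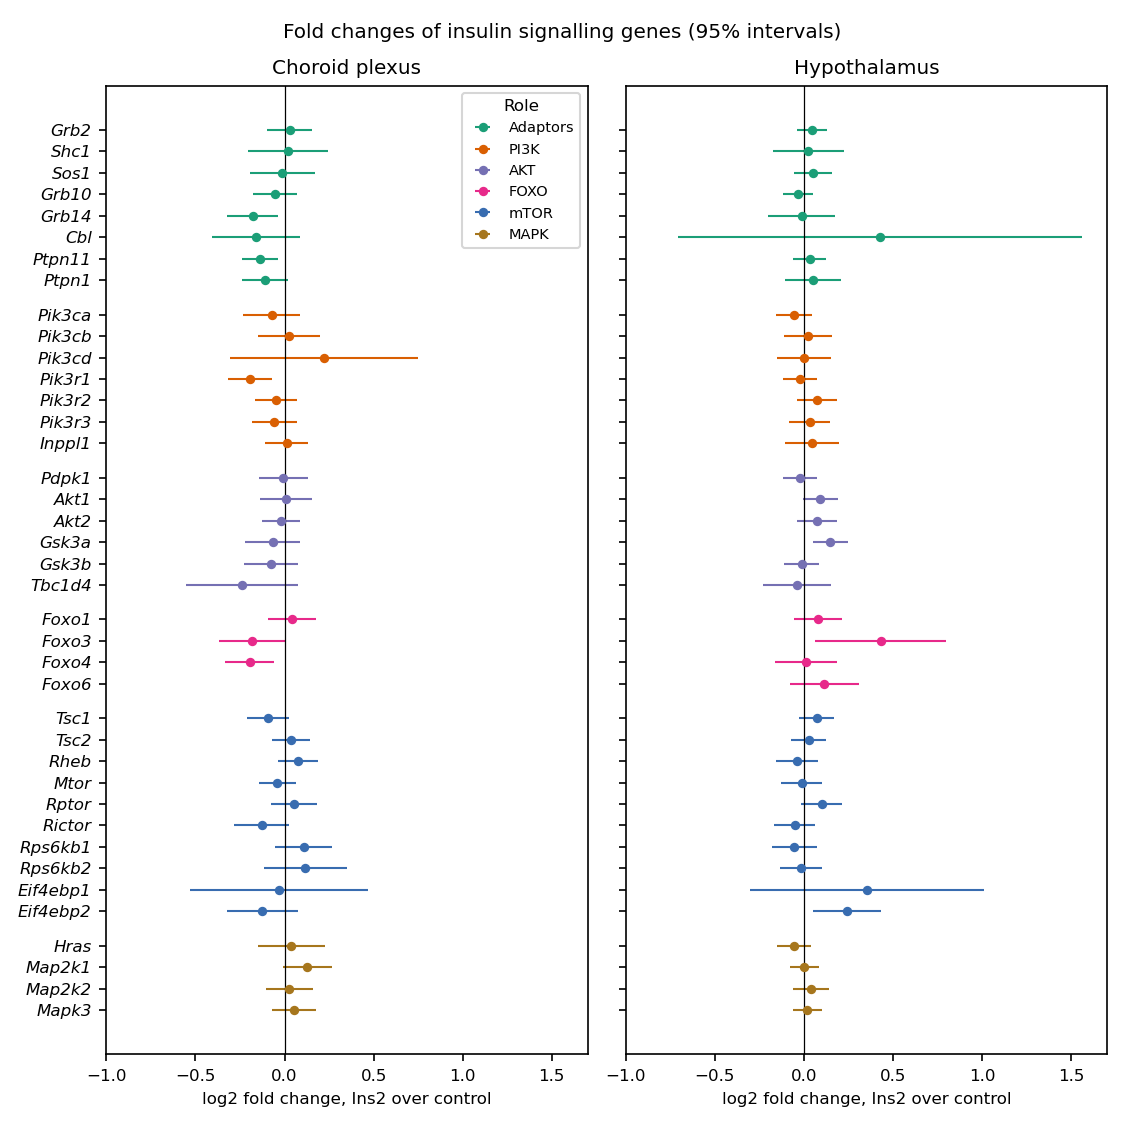
Log2 fold changes (Ins2 over control) with 95% intervals of the genes, grouped by role, in choroid plexus (left) and hypothalamus (right). Foxo6 has no value in choroid plexus. Most points lie within 0.2 of 0, and the widest intervals are those of Pik3cd and Eif4ebp1 in choroid plexus and of Cbl and Eif4ebp1 in hypothalamus.

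Adaptors and brakes near the receptor held 2 of the 4. Ptpn11 had 7760.4, 7989 and 8770.5 scaled reads (lowest, median and highest) in Ins2 choroid plexus, against 8746, 8725, 9145, 9029.7 and 9479 in the controls. Its 4 lowest Ins2 libraries lay below every control and the 2 others within the control range, a log2 fold change of -0.14 ± 0.05 (SE) with an adjusted p of 0.645 by limma and an exact two-sided permutation p of 0.0195. Grb14 had 991, 1157 and 1189 in Ins2 choroid plexus, against 1321, 1238, 1212, 1440.1 and 1182 in the controls. Here 5 of 6 Ins2 libraries lay below every control (-0.18 ± 0.07, adjusted p = 0.718 by limma, exact permutation p = 0.00433). Of the other 6 in this role, the scaffold genes Grb2 (0.03) and Shc1 (0.02) and the RAS exchange factor Sos1 (-0.01) were closest to 0, and Grb10 (-0.05), Ptpn1 (-0.11), the phosphatase that dephosphorylates the receptor, and Cbl (-0.16) were below it.

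Among the PI3K genes the lowest p belonged to Pik3r1, which encodes the p85α regulatory subunit that docks PI3K on receptor substrates. It had 4048, 4507 and 5100.1 scaled reads in Ins2 choroid plexus, against 4811, 5363, 5188, 5254 and 5578 in the controls. All 6 Ins2 libraries lay below the control median and 4 below every control, with a log2 fold change of -0.19 ± 0.06 (SE), an adjusted p of 0.557 by limma and an exact permutation p of 0.0173. The other regulatory subunits Pik3r2 (-0.05) and Pik3r3 (-0.06), the catalytic subunits Pik3ca (-0.07) and Pik3cb (0.03) and the lipid phosphatase gene Inppl1 (0.01) stayed nearer to 0. Pik3cd was too sparse to place: 57.9, 78.0 and 137 scaled reads in Ins2 choroid plexus and 88.6, 85.2, 94.5, 62.4 and 38.9 in the controls, a fold of 1.17 (0.808 to 1.68). Without control replicate 5 its log2 fold change was 0.01, against 0.22 with all libraries. Its lowest value fell in that library, where the summed level of 6 macrophage and microglia markers was also lowest. That sum was 422 scaled reads there, against 569 to 1138 in the other choroid plexus libraries. The highest Pik3cd value, 137 in Ins2 replicate 2, came with a marker sum of 704. The highest marker sum, 1138 in Ins2 replicate 1, came with a Pik3cd value of 89.6. The part of these cells in the Pik3cd values was not tested.

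In the FOXO group, the targets that AKT holds outside the nucleus, Foxo4 had 980.4, 1014 and 1130.4 scaled reads in Ins2 choroid plexus, against 1043, 1208, 1170.0, 1196 and 1277 in the controls. Of the 6 Ins2 libraries, 5 lay below every control (-0.20 ± 0.07, adjusted p = 0.621 by limma, exact permutation p = 0.0108). Foxo3, best known for stress resistance and atrophy programmes, had 539, 651 and 719 in Ins2 and 679.7, 738, 661, 716 and 803 in control choroid plexus (-0.18 ± 0.09, adjusted p = 0.803, exact permutation p = 0.0801). Its groups overlapped in 3 Ins2 libraries. Foxo1, the FOXO factor of hepatic glucose output, was at 0.04, and Foxo6 had 6.22 ± 6.52 scaled reads in Ins2 and 7.90 ± 2.68 in control choroid plexus (SD, n = 6 and 5).

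The kinases of the AKT group were closer to their controls. Log2 fold changes were 0.01 for Akt1, -0.02 for Akt2, -0.01 for Pdpk1, whose kinase activates AKT, -0.07 for Gsk3a and -0.07 for Gsk3b. Tbc1d4 had 158, 183 and 205 scaled reads in Ins2 choroid plexus, against 204, 253, 156, 190.2 and 297 in the controls, so that all 6 Ins2 values lay within the control range (fold 0.848, 0.682 to 1.06). The mTOR group split evenly, with 5 of 10 above and 5 below 0: the S6 kinase genes Rps6kb1 (0.11) and Rps6kb2 (0.12) and Rheb (0.08), whose GTPase switches mTOR on, were the highest, and Rictor (-0.13), the core of the second mTOR complex, Eif4ebp2 (-0.12), a brake on translation, and Tsc1 (-0.09), a brake on RHEB, the lowest. Between them lay Rptor (0.05), Tsc2 (0.04), Eif4ebp1 (-0.03) and Mtor (-0.04). The smallest adjusted p of the mTOR group was 0.835 by limma. The 4 MAPK genes were all above 0, with 0.03 for Map2k2, 0.04 for Hras, 0.05 for Mapk3 and 0.13 for Map2k1. Map2k1 had 1279, 1430.4 and 1504 scaled reads in Ins2 choroid plexus, against 1249, 1374, 1341, 1136 and 1362 in the controls (0.13 ± 0.07, adjusted p = 0.815, exact permutation p = 0.0584), and 4 of its 6 Ins2 libraries exceeded every control.

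The second comparison asked whether the hypothalamus of the same kind of mouse differed. None of the 39 genes was called, with a smallest adjusted p of 0.350 by limma, and none of all 16363 genes was (0%). Over all genes, 1624 had an unadjusted p under 0.05, edgeR called 0 and DESeq2 called 41, of which 0 were among the 39. DESeq2 gave no adjusted p for at least Foxo3 and Eif4ebp2 of the 39, so it could not call these genes. At an unadjusted p under 0.05 there were 3 of the 39, or 7.69%, all with higher values in Ins2 (Gsk3a, Eif4ebp2 and Foxo3), beside 5.85% of all genes higher and 9.92% in either direction. The log2 fold changes ran from -0.06 to 0.43 with a median of 0.03, and 26 of 39 (66.7%) were above 0, beside 50.3% of all genes. With equal totals per library 23 of 39 were above 0, beside 45.4% of all genes. No gene had groups whose ranges did not overlap (1.5% of all genes), and the interval lay within 1.5-fold in either direction for 36 of the 39, the exceptions being Cbl, Eif4ebp1 and Foxo3.

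Gsk3a, which encodes the GSK3α kinase that AKT inhibits, had 4994, 5592, 5370.0, 5473 and 5189.5 scaled reads in Ins2 hypothalamus, against 4524, 4885, 4954, 4567 and 5106 in the controls. Of the 5 Ins2 libraries, 4 exceeded every control and the fifth lay between them. The log2 fold change was 0.15 ± 0.05 (SE), a fold of 1.11 (1.03 to 1.19), with an adjusted p of 0.350 by limma and an exact permutation p of 0.0159. Its paralog Gsk3b was at -0.01. Gsk3a shares 28.3% of its exon bases with 9130221H12Rik on the opposite strand, and as the strand setting of the counting is not given in the sources used here, its value is uncertain to that extent.

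Eif4ebp2, the 4E-BP form that predominates in brain, had 803, 812, 933, 846 and 863 scaled reads in Ins2 hypothalamus, against 734, 746, 756, 556 and 839 in the controls. Only control replicate 6 reached the Ins2 range (0.24 ± 0.09, fold 1.18, 1.03 to 1.35, adjusted p = 0.398 by limma, exact permutation p = 0.0238). Without control replicate 4, the lowest, the log2 fold change was 0.15. Foxo3 had 423, 355, 553, 333 and 418 in Ins2 hypothalamus, against 277, 359, 239.9, 222 and 489 in the controls. Its control values spread over a wider range than its Ins2 values, with a coefficient of variation of 20.6% in Ins2 and 34.5% in control libraries. The fold was 1.35 (1.05 to 1.74), with an adjusted p of 0.430 by limma and an exact permutation p of 0.103.

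Both genes were highest in Ins2 replicate 3 and, among the controls, in replicate 6. These were also the libraries with the highest summed level of 6 thalamus markers in their group. That sum was 3677, 4676, 5172, 4227 and 4383 scaled reads in Ins2 replicates 1 to 5, against 3547, 3951, 3513, 3584 and 4204 in control replicates 1 to 4 and 6. All 6 markers had a mean above the limit for testing, and 3 of them, Prkcd, Rora and Synpo2, had higher Ins2 values at an unadjusted p under 0.05. The part of dissection in the Foxo3 and Eif4ebp2 values was not tested.

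Akt1, Rptor and Tsc1 complete the 6 lowest p-values. Akt1 had 7103, 7151, 7478, 7203 and 7354 scaled reads in Ins2 hypothalamus, against 6178, 6971, 7322, 6449.8 and 7206 in the controls (0.09 ± 0.05, adjusted p = 0.541 by limma, exact permutation p = 0.111). Rptor, which encodes raptor, the scaffold of the first mTOR complex, had 3729, 3766, 3895, 3789.6 and 3866 in Ins2 hypothalamus, against 3355, 3754, 3799, 3112 and 3809.8 in the controls (0.10 ± 0.06, adjusted p = 0.565 by limma, exact permutation p = 0.151). In both genes control replicates 1 and 4 lay below all other libraries of either group. The log2 fold change was 0.06 for Akt1 without control replicate 1 and 0.05 for Rptor without control replicate 4. Tsc1 had 2664, 2860.4, 2897, 3050.3 and 2932 in Ins2 hypothalamus, against 2707, 2759, 2715, 2733 and 2782 in the controls, so that 4 of 5 Ins2 libraries exceeded every control and 1 lay below them all (0.07 ± 0.05, adjusted p = 0.641, exact permutation p = 0.0556).

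By role, the 8 adaptor and brake genes ran from -0.03 to 0.43, the 7 PI3K genes from -0.06 (Pik3ca) to 0.07 (Pik3r2) and the 4 MAPK genes from -0.06 to 0.04. Excluding Cbl, whose values were 3.42 to 65.6 scaled reads over the 10 hypothalamus libraries, the upper end of the adaptors was 0.05, at Ptpn1. In the AKT group Akt2 was at 0.07, Pdpk1 at -0.02 and Tbc1d4 at -0.04. Of the mTOR group, Rps6kb1 and Rictor were at -0.05, Rheb at -0.04, Rps6kb2 at -0.02, Mtor at -0.01 and Tsc2 at 0.03. All 4 FOXO genes were above 0, with Foxo1 at 0.08, Foxo4 at 0.01 and Foxo6 at 0.11. Foxo6 had 463 ± 33.7 scaled reads in Ins2 and 428 ± 37.1 in control hypothalamus (SD, n = 5 each). Eif4ebp1, the 4E-BP form abundant in fat and muscle, was sparse here, with 51.9 ± 21.6 in Ins2 and 39.9 ± 14.6 in control libraries, and its interval reached from 0.811 to 2.02-fold.

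**Figure D4:**
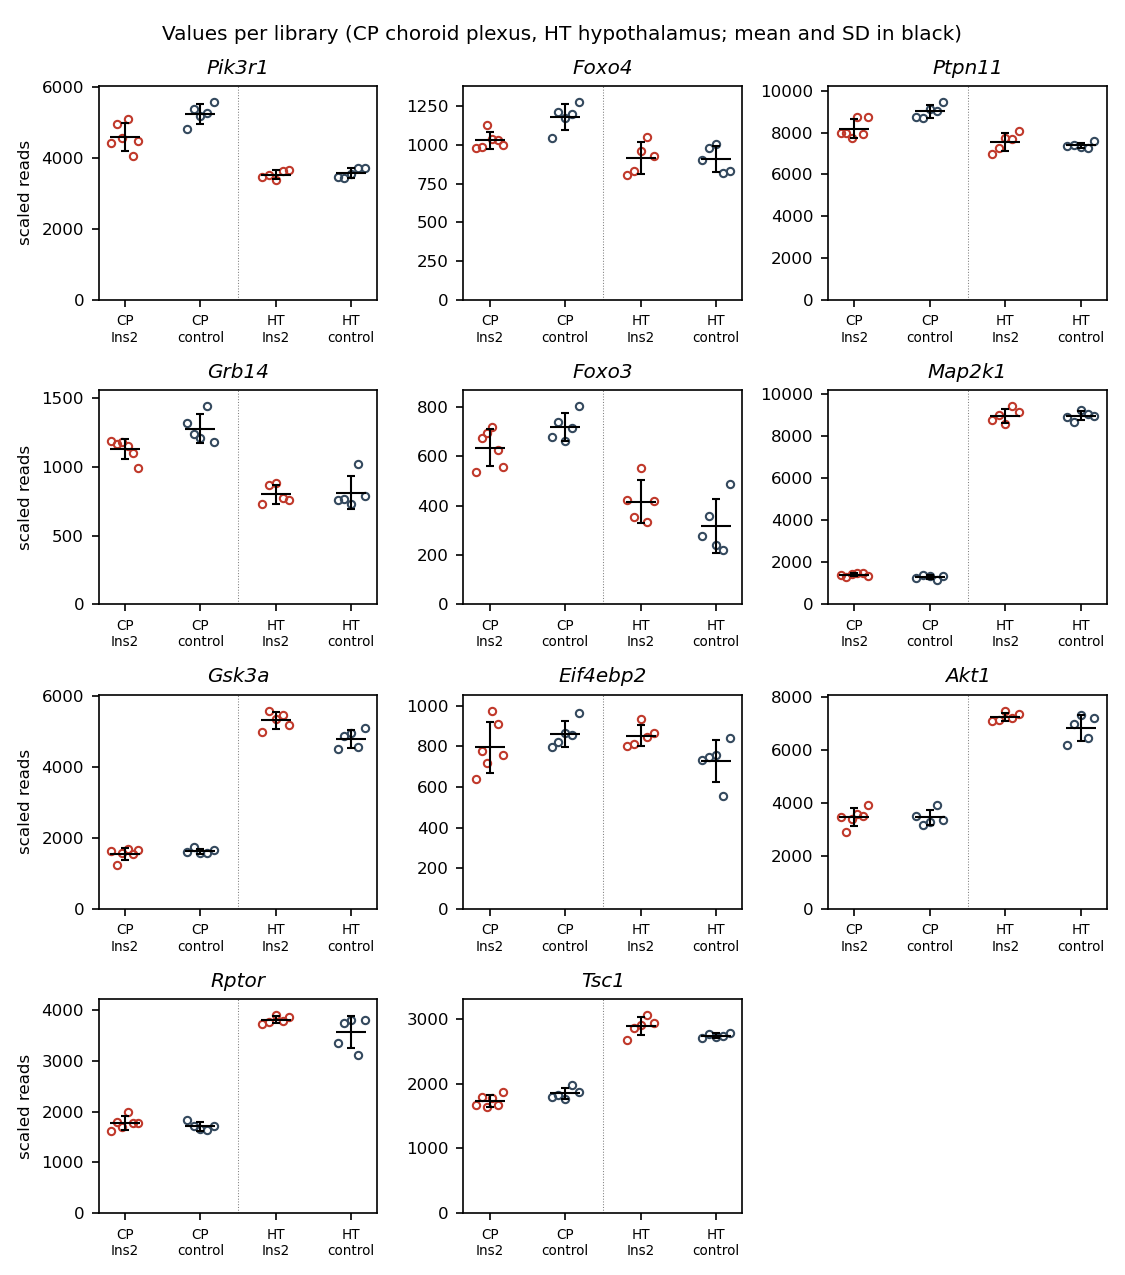
Scaled reads in every library (circles, Ins2 red and left of control, dark) with the mean and SD (black) of the 11 genes with the lowest p-values in a comparison, each panel from 0, for choroid plexus (CP) and hypothalamus (HT). Groups overlap in every panel and tissue, as for Foxo3 in HT, where Ins2 spans 333 to 553 and control 222 to 489.

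The last comparison asked whether the tissues moved in opposite directions. The log2 fold changes had opposite signs in 17 of 38 genes (44.7%), while over all 13997 genes tested in both tissues the share was 56.3%. Lower values in choroid plexus with higher values in hypothalamus were seen in 13 of the 38 (34.2%; 29.1% of all genes). The other way round were 4 of the 38 (10.5%; 27.2% of all genes): Rps6kb1, Rps6kb2, Rheb and Hras, the RAS gene of the list. Most of these fold changes were within their error of 0, so the count of signs says little of any 1 gene.

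The difference between the fold changes, choroid plexus minus hypothalamus, was tested for each gene. None of the 38 was called, with a smallest adjusted p of 0.247, against 15 of all genes (0.107%). At an unadjusted p under 0.05 there were 6 of 38, or 15.8%, all negative, beside 5.86% of all genes negative and 10.6% in either direction. The median difference was -0.05, and 28 of 38 (73.7%) were below 0, beside 50.9% of all genes. With equal totals per library 21 of 38 were below 0 and 17 above, where 57.1% of all genes lay above 0. With the length trend removed 22 of 38 were below 0 and 16 above, with a median difference of -0.02. There 50.2% of all genes with a length lay above 0. The test treats the libraries of both tissues as independent, which need not hold if tissues came from the same mice.

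Foxo3 had the largest difference in size, at -0.61 ± 0.20 (SE; 95% interval -1.02 to -0.21, adjusted p = 0.247 from the limma fits). It combined -0.18 in choroid plexus with 0.43 in hypothalamus. Without hypothalamus control replicate 6, whose Foxo3 value of 489 was the highest of the controls, the difference was -0.79 with an adjusted p of 0.0379, the single setting and gene in which a listed gene was called. Eif4ebp2 differed by -0.36 ± 0.13 (adjusted p = 0.296 from the limma fits). In choroid plexus its values were 638, 765 and 974 scaled reads (lowest, median and highest) in Ins2 and 797, 818, 863, 857 and 963 in control libraries, with Ins2 values both below and above all controls.

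Ptpn11 and Pik3r1 differed by -0.17 ± 0.07 and -0.17 ± 0.08 (adjusted p = 0.329 and 0.409 from the limma fits). Both differences came with hypothalamus fold changes near 0. Ptpn11 had 6971, 7287, 7755, 7709 and 8103 scaled reads in Ins2 hypothalamus, against 7368, 7413, 7305, 7267 and 7608 in the controls (0.03 ± 0.04). Pik3r1 had 3465, 3522, 3378, 3625 and 3656 in Ins2 hypothalamus, against 3459.7, 3444, 3558, 3725 and 3724 in the controls (-0.02 ± 0.05). In Ptpn11 3 Ins2 hypothalamus libraries lay above and 1 below every control, and in Pik3r1 the hypothalamus groups overlapped over most of their range.

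Gsk3a differed by -0.21 ± 0.09 (adjusted p = 0.380) and Tsc1 by -0.16 ± 0.07 (adjusted p = 0.434, both from the limma fits). In choroid plexus Gsk3a had 1233, 1609 and 1693 scaled reads in Ins2 and 1592, 1739, 1573, 1563 and 1665 in control libraries, so that apart from its lowest library the Ins2 values lay around those of the controls. Tsc1 had 1635, 1724 and 1875 in Ins2 choroid plexus, against 1798, 1828, 1763, 1983 and 1872 in the controls (-0.09 ± 0.06). Besides Foxo3 and Eif4ebp2, the intervals of the difference reached beyond 1.5-fold only for Cbl, Eif4ebp1 and Pik3cd, so that for 33 of the 38 genes a difference of that size between the tissues lay outside the 95% interval.

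**Figure D5:**
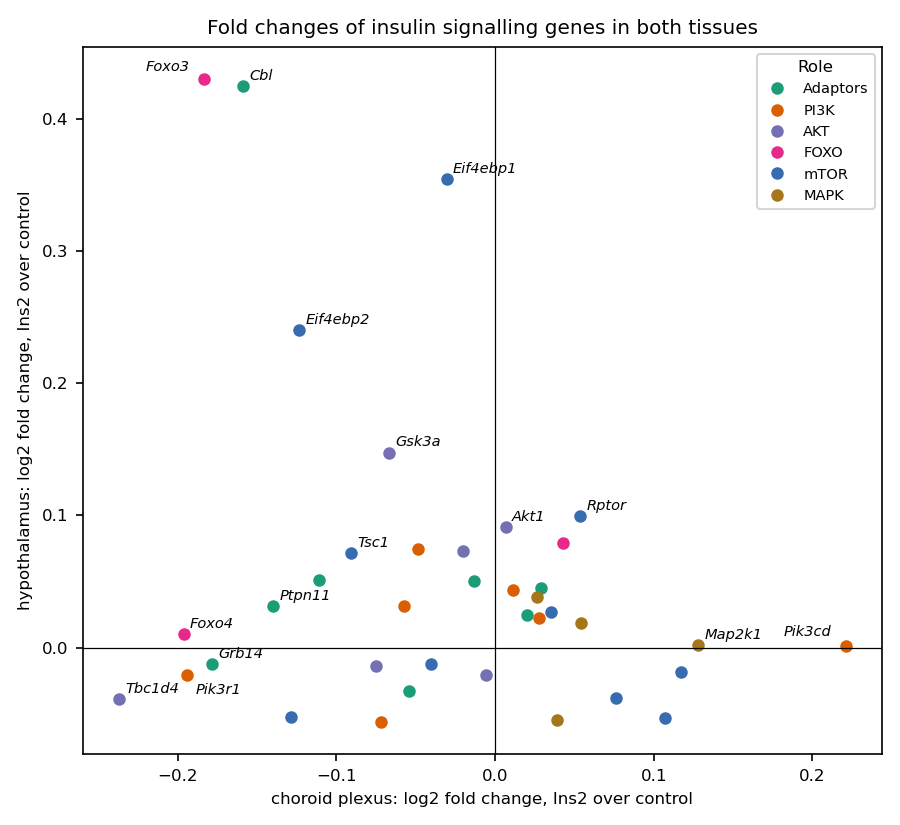
Log2 fold change (Ins2 over control) in hypothalamus against that in choroid plexus for the 38 genes tested in both, coloured by role. The upper left field holds the 13 genes with lower choroid plexus and higher hypothalamus values, led by Foxo3 (-0.18 and 0.43), and the lower right field holds 4.

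A list of 66 further genes drawn up for the pathway, none in the list of 39, gave 0 called genes of 60 tested in choroid plexus and 0 of 66 in hypothalamus. It was drawn up with earlier results of these data known, so its shares are descriptions and not tests. The 66 include Pdk1, which encodes a pyruvate dehydrogenase kinase and not the PDK1 of this chain, encoded by Pdpk1. Pdk1 had an unadjusted p of 0.150 in choroid plexus and 0.832 in hypothalamus by limma. At an unadjusted p under 0.05 there were 7 of 60 in choroid plexus, all lower in Ins2 (11.7%, beside 3.67% of all genes lower), and 2 higher and 3 lower of 66 in hypothalamus (7.58%, beside 9.92% of all genes in either direction). The receptor genes were among the 7, named here after their values were seen. Insr, the insulin receptor, had 3299.7 ± 398 scaled reads in Ins2 and 3736 ± 304 in control choroid plexus (SD, n = 6 and 5; adjusted p = 0.729 by limma), and Igf1r had 7752 ± 635 in Ins2 and 8385 ± 299 in control (adjusted p = 0.801). Irs2, a receptor substrate that docks PI3K, was also named after its values were seen. In hypothalamus it had 4373 ± 219 in Ins2 and 3582 ± 491 in control libraries (SD, n = 5 each, adjusted p = 0.309 by limma). Its log2 fold change was 0.30 there and 0.03 in choroid plexus. Of the 7 receptor and substrate genes in hypothalamus, 4 were above 0 and 3 below: Insr (-0.08), Irs1 (-0.04) and Irs4 (-0.09).

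Genes known to respond to the pathway gave 0 called of 45 tested in choroid plexus and 0 of 46 in hypothalamus, with 8 of 45 (17.8%) and 8 of 46 (17.4%) at an unadjusted p under 0.05, beside 6.21% and 9.92% of all genes. Insr and Irs2 are in this list too. It was likewise drawn up with earlier results of these data known, and its shares are descriptions. Of the 12 genes that MAPK signalling induces, 9 were above 0 in each tissue, with medians of 0.29 in choroid plexus and 0.12 in hypothalamus. Their summed level was 4501 to 5603 scaled reads in Ins2 and 4052 to 5719 in control choroid plexus, the highest being control replicate 5. In hypothalamus the sums were 14227 to 15967 in Ins2 and 13529 to 15211 in control libraries, so that the groups overlapped in each tissue. Dusp4, a phosphatase for ERK and also named after its values were seen, had 69.1 ± 44.8 scaled reads in Ins2 and 32.2 ± 14.6 in control choroid plexus (SD, n = 6 and 5; adjusted p = 0.718 by limma), and 358 ± 74.0 in Ins2 and 255 ± 86.2 in control hypothalamus (SD, n = 5 each; adjusted p = 0.383). The Dusp4 values ran from 34.8 to 158 in Ins2 and from 6.93 to 44.3 in control choroid plexus. In hypothalamus they ran from 271 to 430 in Ins2 and from 162 to 353 in control libraries. The FOXO-induced genes had 9 of 14 below 0 in choroid plexus (median -0.07) and 7 of 14 in hypothalamus (median 0.01). Of the 10 sterol and lipid synthesis genes, 8 were below 0 in choroid plexus (median -0.07) and 8 above 0 in hypothalamus (median 0.06). The genes that the first mTOR complex induces had 4 of 9 above 0 in choroid plexus (median -0.01) and 4 of 10 in hypothalamus (median -0.03). Beside these counts, 48.4% of all genes were above 0 in choroid plexus and 50.3% in hypothalamus.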

How the data were processed

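Per the labels' protocols, PicoPure RNA was selected for poly(A) and made into directional (dUTP) libraries. The submitters' processing notes list HISAT2, featureCounts and DESeq2 and the mouse build GRCm38 (mm10), without versions. The strand setting of the counting is not given in the sources used here. The deposited signal values are counts per gene that the authors scaled by DESeq2 size factors, separately in 1 table per tissue. Whole reads were recovered from the step of the low values, with 100% of values whole within 0.02.

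Tests used limma 3.58.1 (R 4.3.3; lmFit, eBayes with trend) on log2(value + 1), per tissue, for 14533 genes in choroid plexus and 16363 in hypothalamus with a mean of at least 10, two-sided with Benjamini-Hochberg adjustment. The difference of the tissues used both moderated errors with Welch-Satterthwaite degrees of freedom. Exact permutation tests ran over all 462 or 252 splits, with smallest possible p-values of 0.00216 and 0.00794. edgeR 4.0.16 and DESeq2 1.42.0 were run on the recovered reads as alternatives. Counting limits (3 reads for a count of 0) and intervals at 95% cover counting error or the spread of libraries only.

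Exon lengths and overlaps came from GENCODE M21, and 14 of the 39 genes overlapped a gene on the opposite strand, 8 of them in exons. These 8 were Gsk3a (28.3% of exon bases), Rps6kb2 (24.6%), Inppl1 (20.3%), Foxo1 (7.78%), Tsc2 (7.20%), Rps6kb1 (1.79%), Pik3r2 (1.08%) and Rptor (0.624%). Pik3r3 shares 1289 exon bases with Gm49337 on its own strand. How the counting treated reads shared by 2 genes is not given in the sources used here, so its count is uncertain to that extent. Full values were given for the 6 genes with the lowest p in each tissue and in the difference, as too few were called, and the highest and lowest per length. The members and lists were chosen with earlier results of these data known. Their shares beside those of all genes are therefore descriptions and not tests.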

Additional observations from a re-analysis of the deposited data

Results flagged for a closer look

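A library stood far from the rest of its group, by Dixon's test at 95%, in 7 of the 156 groups of values examined (each gene in each group of a tissue). Chance alone flags about 1 group in 20. Choroid plexus control replicate 5 was the highest of its group for Pdpk1 (2729 scaled reads, others 2216 to 2311) and for Hras (2026, others 1583 to 1692). Choroid plexus Ins2 replicate 2 was the lowest for Gsk3a (1233, others 1548 to 1693) and the highest for Foxo6 (19.0, others 0.942 to 5.49). The remaining 3 were Foxo6 in choroid plexus control replicate 3 (3.26, the lowest, others 8.24 to 9.90), Grb10 in hypothalamus control replicate 1 (8007, the highest, others 7402 to 7553) and Grb14 in hypothalamus control replicate 4 (1023, the highest, others 727 to 787). The value of Gsk3a in choroid plexus is part of its difference between the tissues, which was -0.21 with all libraries and -0.15 without Ins2 replicate 2.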

How the results depend on the processing

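No listed gene was called in a tissue under any setting run (smallest adjusted p 0.147 in choroid plexus and 0.0960 in hypothalamus), and in the difference 0 were called except 1, Foxo3, without hypothalamus control replicate 6 (-0.79, adjusted p 0.0379; 0 to 1 over libraries left out). The genes with the 6 lowest p-values of each comparison kept their direction in that comparison in every setting run. Over all listed genes, 29 of 38 in choroid plexus, 27 of 39 in hypothalamus and 25 of 38 in the difference never changed sign. Counts over all genes moved more. In choroid plexus 2 genes were called, but 31 with DESeq2, 6 with array weights, 1 with a mean of at least 50 and 1 to 4 with a library left out. In hypothalamus 0 were called, but 41 with DESeq2 and 0 to 18 with a library left out, the 18 without control replicate 6. In the difference 15 were called, but 38 with array weights, 4 with equal totals, 6 with no filter and 2 to 44 with a library left out, the 44 again without hypothalamus control replicate 6. The cause of these shifts was not tested. With equal totals the median log2 fold change of all genes was 0.02 in choroid plexus, -0.01 in hypothalamus and 0.03 in the difference. DESeq2 gave no adjusted p for at least Ins2 and Foxo3 in choroid plexus and Foxo3 and Eif4ebp2 in hypothalamus. It could not call these genes there, and its counts are over fewer genes than were tested.

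Replicates with the same replicate number in the labels did not pair. Correlations of their deviations ran from -0.15 to 0.14 in choroid plexus and from -0.07 to 0.01 in hypothalamus, and only choroid plexus replicate 3 correlated best with its own number. With the replicate number as a block, 2 genes were called in choroid plexus, 54 in hypothalamus and 35 in the difference, and 0 listed genes in each. In hypothalamus the sample codes depart from these numbers, with Ins2 replicate 4 coded F5, Ins2 replicate 5 coded F6 and control replicate 6 coded G5. Pairing by code was not examined.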
